A study of Rattus norvegicus with 6 samples.

Results

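Parvalbumin-type (PV-type) interneurons were examined in single-nucleus RNA-seq libraries of rat brain taken 48 h after an experimental stroke. A nucleus was counted as PV-type when it held at least 5 UMIs (unique molecular identifiers, 1 per captured RNA molecule) of the neuronal genes *Snap25*, *Syt1* and *Rbfox3*, at least 2 of the GABA-synthesis genes *Gad1* and *Gad2*, at least 4 of the PV-type markers *Mybpc1*, *Eya4* and *Kcns3*, at most 1 of *Sst* and *Vip*, none of *Slc17a7* and *Slc17a6*, and at most 2 of the striatal genes *Rarb* and *Rgs9*. This rule took 777 of the 73649 nuclei that passed the limits of at least 500 UMIs, 250 to 5000 genes and at most 5% mitochondrial UMIs. *Pvalb* itself was part of the marker sum in the rule, but no feature in the gene lists used here carried that symbol. *Pvalb* was therefore not analysed here, and the name PV-type rests on the other markers.

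PV interneurons are fast-spiking GABAergic cells that arise in the medial ganglionic eminence and place inhibitory synapses on the cell body, proximal dendrites or axon initial segment of their targets. Kv3 and Kv1 potassium channels shorten their action potentials and let them fire at high rates, which makes their energy demand large. In the cortex, hippocampus and striatum they control the timing of principal cell output, and they are studied in stroke because the balance of excitation and inhibition shifts in tissue around an infarct.

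All rats were male, wild-type Wistar rats 12 weeks of age. The right middle cerebral artery was permanently occluded with an intraluminal filament (middle cerebral artery occlusion, MCAO), and Sham rats underwent the same operation without insertion of the filament. Nuclei came from coronal slices around the lesion, and each hemisphere was pooled over rats into 1 library. Sham L and Sham R were the left and right hemispheres of the same 4 Sham rats, mMCAO contra and mMCAO ipsi the hemispheres contralateral and ipsilateral to the lesion of 3 rats with moderate lesions, and sMCAO contra and sMCAO ipsi those of 4 rats with severe lesions. The 6 libraries thus form 3 groups of 2, Sham, MCAO contra and MCAO ipsi, and since every library is a pool, p-values measure the spread between these libraries and not between rats.

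The Sham hemispheres gave 140 (Sham L) and 88 (Sham R) PV-type nuclei, the contralateral ones 178 (mMCAO contra) and 108 (sMCAO contra), and the ipsilateral ones 188 (mMCAO ipsi) and 75 (sMCAO ipsi). Their summed counts were 662960, 289041, 875546, 479014, 966260 and 641401 UMIs in the same order, and their median depths were 4327, 3072.5, 4596.5, 3936.5, 4838.5 and 7906 UMIs. The sMCAO ipsi library stood apart: it gave the fewest PV-type nuclei and the deepest ones, and only 3215 of its 8665 nuclei passed the neuronal limit against 8912 of 12948 in mMCAO ipsi. At the edge of the rule, 183 nuclei held exactly 4 marker UMIs and 234 nuclei that met every other limit held 3. Between any 2 libraries, 118 to 281 cell barcodes were shared among all nuclei and at most 1 among PV-type nuclei.

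The label was checked on genes that the rule did not use. *Kcnc2*, which encodes the Kv3.2 channel, had a UMI in 98.9 to 100% of PV-type nuclei across the 6 libraries, against 70.1 to 80.5% of *Adarb2*-lineage interneuron nuclei (GABAergic nuclei with at least 6 UMIs of *Adarb2*, fewer than 4 of the PV markers, at most 1 of *Sst* and at most 2 of *Rarb* and *Rgs9*) and 12.9 to 25.8% of medium spiny neuron nuclei (GABAergic nuclei with at least 6 UMIs of *Rarb* and *Rgs9*, fewer than 4 of the PV markers and at most 1 of *Sst* and *Vip*). *Sox6*, a transcription factor of interneurons from the medial ganglionic eminence, had one in 87.1 to 94.7% of PV-type nuclei against 19.9 to 31.6% of *Adarb2*-lineage nuclei, and *Satb1*, a chromatin organiser of the same lineage, in 64.8 to 80.9% against 13.7 to 20.8%. Both genes were thus found in most PV-type nuclei of every library and in a minority of *Adarb2*-lineage nuclei, whose median depth was lower in every library (2307.5 to 5969 UMIs). *Lhx6*, another transcription factor of this lineage, was sparse, with a UMI in 9.09 to 40.0% of PV-type nuclei. *Sst* interneurons were not part of this check, so it does not separate PV-type nuclei from them.

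Most PV-type nuclei were chosen through *Eya4*, a transcriptional coactivator and phosphatase. *Eya4* had a UMI in 135 of 140, 87 of 88, 173 of 178, 106 of 108, 172 of 188 and 68 of 75 PV-type nuclei in the order above, *Kcns3*, a modulatory potassium channel subunit, in 52, 33, 77, 28, 79 and 40, and *Mybpc1*, a myosin-binding protein, in 27, 13, 37, 15, 58 and 30. *Eya4* was not restricted to interneurons in these data, since 46.9 to 60% of oligodendrocyte nuclei (at least 10 UMIs of oligodendrocyte markers and at most 1 of the neuronal genes) carried a UMI of it at median depths of 902.5 to 1299.5 UMIs. *Sox6*, *Satb1* and *Kcnc2* had a UMI in at most 20.0% of those oligodendrocyte nuclei in any library. More than 2 UMIs of glial genes were present in 38, 14, 59, 40, 76 and 36 PV-type nuclei, 7, 2, 10, 4, 12 and 2 were predicted doublets, and 3, 3, 8, 4, 4 and 4 held at least 6 UMIs of *Adarb2*. These nuclei were kept in the main comparisons, and the comparisons were repeated without them.

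Of all GABAergic neuron nuclei, PV-type nuclei made up 7.53% (exact 95% interval 6.37 to 8.83%, 140 of 1859 nuclei) in Sham L and 6.03% (exact 95% interval 4.87 to 7.38%, 88 of 1459 nuclei) in Sham R. In MCAO contra the share was 7.67% (exact 95% interval 6.62 to 8.83%, 178 of 2321 nuclei) in mMCAO contra and 7.18% (exact 95% interval 5.93 to 8.6%, 108 of 1504 nuclei) in sMCAO contra. In MCAO ipsi it was 10.9% (exact 95% interval 9.47 to 12.5%, 188 of 1725 nuclei) in mMCAO ipsi and 6.1% (exact 95% interval 4.83 to 7.58%, 75 of 1230 nuclei) in sMCAO ipsi. Only mMCAO ipsi lay above the other 5 libraries beyond the counting intervals of each, while sMCAO ipsi lay inside the range of Sham and MCAO contra, so that MCAO ipsi overlapped both other groups. The mean share was 8.5% ± 3.39 in MCAO ipsi, 7.42% ± 0.345 in MCAO contra and 6.78% ± 1.06 in Sham (SD, n = 2 each). The shares were not tested. An exact permutation test of 2 libraries against 2 could not have given a two-sided p below 0.33.

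A nucleus with more UMIs reaches the limit of 4 marker UMIs more easily, so the share was also taken at equal depth. With each nucleus thinned to 2000 UMIs the shares were 2.51, 4.73, 2.6, 2.55, 4.65 and 2.73% from Sham L to sMCAO ipsi, of the 876, 634, 1115, 706, 861 and 477 GABAergic nuclei that were deep enough. With 4000 UMIs they were 11.6, 8.24, 11.6, 8.78, 21.4 and 6.63%, of 483, 170, 809, 376, 514 and 799 nuclei. At 2000 UMIs mMCAO ipsi no longer stood apart from Sham R, whereas at 4000 UMIs, where Sham R kept only 170 GABAergic nuclei, it again held the highest share. Of all nuclei of any type, PV-type nuclei made up 1.07, 0.646, 1.23, 1.0, 1.45 and 0.866% in the same order.

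Of neuronal nuclei, PV-type nuclei made up 1.33, 0.774, 1.66, 1.34, 2.11 and 2.33% from Sham L to sMCAO ipsi, so that here both ipsilateral libraries lay above the other 4. They also did with nuclei thinned to 2000 UMIs, at 0.25, 0.386, 0.306, 0.268, 0.494 and 0.455%, and to 4000 UMIs, at 1.4, 0.787, 1.69, 1.12, 2.35 and 1.9%, although in each case the counting intervals of the ipsilateral libraries overlapped that of at least 1 other library. The order of the libraries thus depended on whether GABAergic or all neuronal nuclei were the base. Medium spiny nuclei made up 5.18, 3.37, 6.87, 5.11, 6.64 and 14.9% of neuronal nuclei in the same order, and were also most frequent in sMCAO ipsi, the library with the fewest neuronal nuclei.

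**Figure D1:**
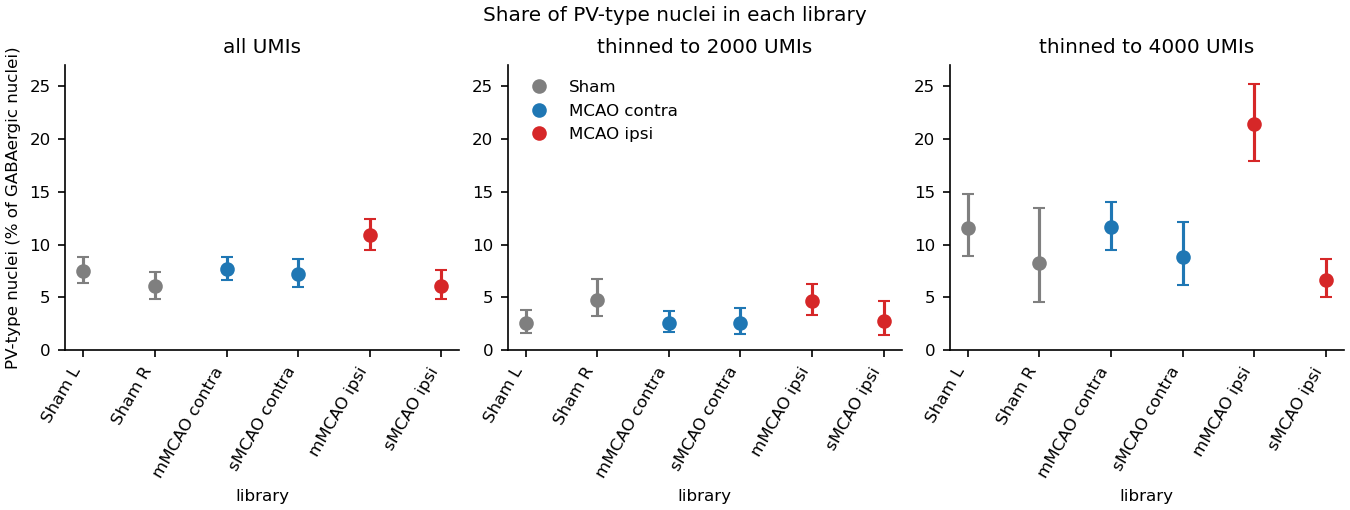
Share of PV-type nuclei among GABAergic neuron nuclei (percent, vertical axis) in each of the 6 libraries (horizontal axis), with all UMIs and after thinning each nucleus to 2000 or 4000 UMIs; bars are exact 95% binomial intervals, which hold counting error only. With all UMIs mMCAO ipsi, at 10.9%, lies above the other libraries, which range from 6.03 to 7.67%.

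PV-type nuclei were compared with the other GABAergic nuclei of the same libraries, and 72 genes stood higher in them throughout. Since the rule chose the nuclei from this same contrast, these ratios are a description without a test. Of 3357 genes with a mean of at least 50 CPM (UMIs per 1000000 UMIs of the summed nuclei) in PV-type nuclei, 72 were at least 2 times as high in PV-type nuclei as in other GABAergic nuclei in all 6 libraries. *Pparg*, a nuclear receptor of lipid metabolism, led them with ratios of 6.74 to 12.8. The kinase gene *Cdk15* ranged over 4.71 to 21.1, the homeobox genes *Prrx1* and *Mkx* over 4.44 to 8.43 and 3.82 to 7.21, and *Rspo2*, a secreted activator of Wnt signalling, over 4.33 to 14.4. Its receptor *Lgr5* ranged over 3.3 to 6.84, so that a ligand and a receptor of 1 pathway were both among the 15 leading genes. *Kcnc2* ranged over 3.44 to 8.68, *Satb1* over 3.42 to 6.92, *Cemip*, a hyaluronan-degrading protein, over 3.4 to 5.34, and *Pde5a*, a cGMP phosphodiesterase, over 3.13 to 6.19. *Btbd11*, *Frmpd1*, *Tmem132c*, *Plch2* and the unnamed gene ENSRNOG00000065736 completed the 15, with their lowest ratios between 3.02 and 3.76.

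The first comparison asked which genes of PV-type nuclei changed in the lesioned hemisphere, MCAO ipsi against Sham. UMIs were summed per library and tested with edgeR's quasi-likelihood F test, and a gene was called when its Benjamini-Hochberg adjusted p was below 0.05 and its log2 fold change at least 0.6 in size. Of 7675 genes tested, 49 were called (0.638%), 25 higher (0.326%) and 24 lower (0.313%) in MCAO ipsi. For comparison, both MCAO ipsi libraries lay above both Sham libraries in 20.9% of all genes tested and below both in 21.4%. One of the 49, *Mybpc1*, belongs to the rule and is given below as a description only.

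Levels of the genes that rose are given in CPM with Sham L before Sham R and mMCAO before sMCAO. *Abi3bp*, an extracellular matrix protein, was at 0 and 3.46 in Sham, 0 and 6.26 in MCAO contra and 53.8 and 48.3 in MCAO ipsi. It was thus nearly absent outside the lesioned hemisphere, with 1 UMI in Sham, 3 in MCAO contra and 83 in MCAO ipsi. The ratio of MCAO ipsi to Sham was 49.1 (95% interval 8.58 to 1964) by counting error. With so few UMIs elsewhere, *Abi3bp* passed the filter on low counts only through the group where it was high, so its call is given as a description. *Sema3c*, a secreted axon guidance cue, was at 19.6 and 6.92 in Sham, 38.8 and 14.6 in MCAO contra and 66.2 and 62.4 in MCAO ipsi. MCAO ipsi lay above both other groups, and the change from Sham was log2 fold change 2.04 ± 0.40 (SE), adjusted p = 0.021. *Fstl4*, a follistatin-like secreted protein, was at 49.8 and 38.1 in Sham, 59.4 and 104 in MCAO contra and 142 and 234 in MCAO ipsi (log2 fold change 2.0 ± 0.30 (SE), adjusted p = 0.00221). The groups did not overlap, and sMCAO ipsi held the highest value.

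*Tcerg1l* was at 43.7 and 27.7 in Sham, 64.0 and 56.4 in MCAO contra and 124 and 143 in MCAO ipsi (log2 fold change 1.79 ± 0.25 (SE), adjusted p = 0.00126). The ipsilateral libraries were close to each other and both were above the other 4. *Tmem117*, a transmembrane protein, was at 264 and 301 in Sham, 273 and 269 in MCAO contra and 493 and 964 in MCAO ipsi (log2 fold change 1.37 ± 0.22 (SE), adjusted p = 0.00426). Here Sham and MCAO contra overlapped, both ipsilateral libraries lay above them, and sMCAO ipsi was the highest. *Grik1*, which encodes the kainate receptor subunit GluK1, was at 1449.6 and 1194 in Sham, 1129.6 and 952 in MCAO contra and 1777 and 3433 in MCAO ipsi (log2 fold change 0.97 ± 0.21 (SE), adjusted p = 0.0308). Both ipsilateral libraries were above all others, and sMCAO ipsi was far the highest. The other named increases were *Maml2*, a coactivator of Notch signalling (1.30 ± 0.26), *Ptpro*, a receptor tyrosine phosphatase (1.27 ± 0.29), *Pcdh15*, a protocadherin (1.19 ± 0.26), and the unnamed gene ENSRNOG00000068180 (1.10 ± 0.25), in log2 fold change ± SE.

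Levels of the genes that fell follow in the same order. *Pde10a*, *Pde1a* and *Pde8b* encode phosphodiesterases, enzymes that break down cyclic nucleotides, a family that was not tested as a list. *Pde10a* was at 902 and 782 in Sham, 747 and 789 in MCAO contra and 363 and 391 in MCAO ipsi (log2 fold change -1.16 ± 0.14 (SE), adjusted p = 0.000244). The ipsilateral libraries nearly coincided and lay below all the others. *Pde1a* was at 145 and 176 in Sham, 78.8 and 89.8 in MCAO contra and 71.4 and 63.9 in MCAO ipsi (log2 fold change -1.19 ± 0.20 (SE), adjusted p = 0.00584). *Pde8b* was at 179 and 187 in Sham, 101 and 93.9 in MCAO contra and 75.5 and 85.7 in MCAO ipsi (log2 fold change -1.18 ± 0.18 (SE), adjusted p = 0.00331). Unlike *Pde10a*, whose contralateral values stayed near Sham, *Pde1a* and *Pde8b* were also low in both contralateral libraries. *Hs3st4*, a heparan sulfate sulfotransferase, was at 225 and 263 in Sham, 98.2 and 106 in MCAO contra and 74.5 and 4.68 in MCAO ipsi (log2 fold change -2.40 ± 0.39 (SE), adjusted p = 0.00426). Its levels descended from Sham through MCAO contra to MCAO ipsi without overlap, and sMCAO ipsi held 3 UMIs of it.

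The largest decrease in fold belonged to the unnamed gene ENSRNOG00000068121, at 78.4 and 104 in Sham, 93.7 and 89.8 in MCAO contra and 7.24 and 15.6 in MCAO ipsi (log2 fold change -3.01 ± 0.34 (SE), adjusted p = 0.000189). *Plxnc1*, a semaphorin receptor, was at 113 and 121 in Sham, 99.4 and 89.8 in MCAO contra and 45.5 and 49.9 in MCAO ipsi (log2 fold change -1.28 ± 0.22 (SE), adjusted p = 0.006). In both genes the ipsilateral libraries lay below the other 4. *Hnrnpl*, a regulator of splicing (-1.41 ± 0.27), *Cadps2*, which acts in dense-core vesicle release (-1.22 ± 0.25), the scaffold gene *Iqgap2* (-1.20 ± 0.23) and *Ankrd55* (-1.13 ± 0.23) also fell, in log2 fold change ± SE. From the gene lists, *Grin2a*, which encodes the NMDA receptor subunit GluN2A, was at 1428 and 1335 in Sham, 1199 and 1369 in MCAO contra and 922 and 574 in MCAO ipsi (log2 fold change -0.87 ± 0.17 (SE), adjusted p = 0.0186). *Camk4*, a calcium/calmodulin-dependent kinase, was at 98.0 and 107 in Sham, 94.8 and 96.0 in MCAO contra and 53.8 and 48.3 in MCAO ipsi (log2 fold change -0.97 ± 0.22 (SE), adjusted p = 0.0465). Both genes were below Sham in both ipsilateral libraries, and *Grin2a* was lowest in sMCAO ipsi.

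**Figure D2:**
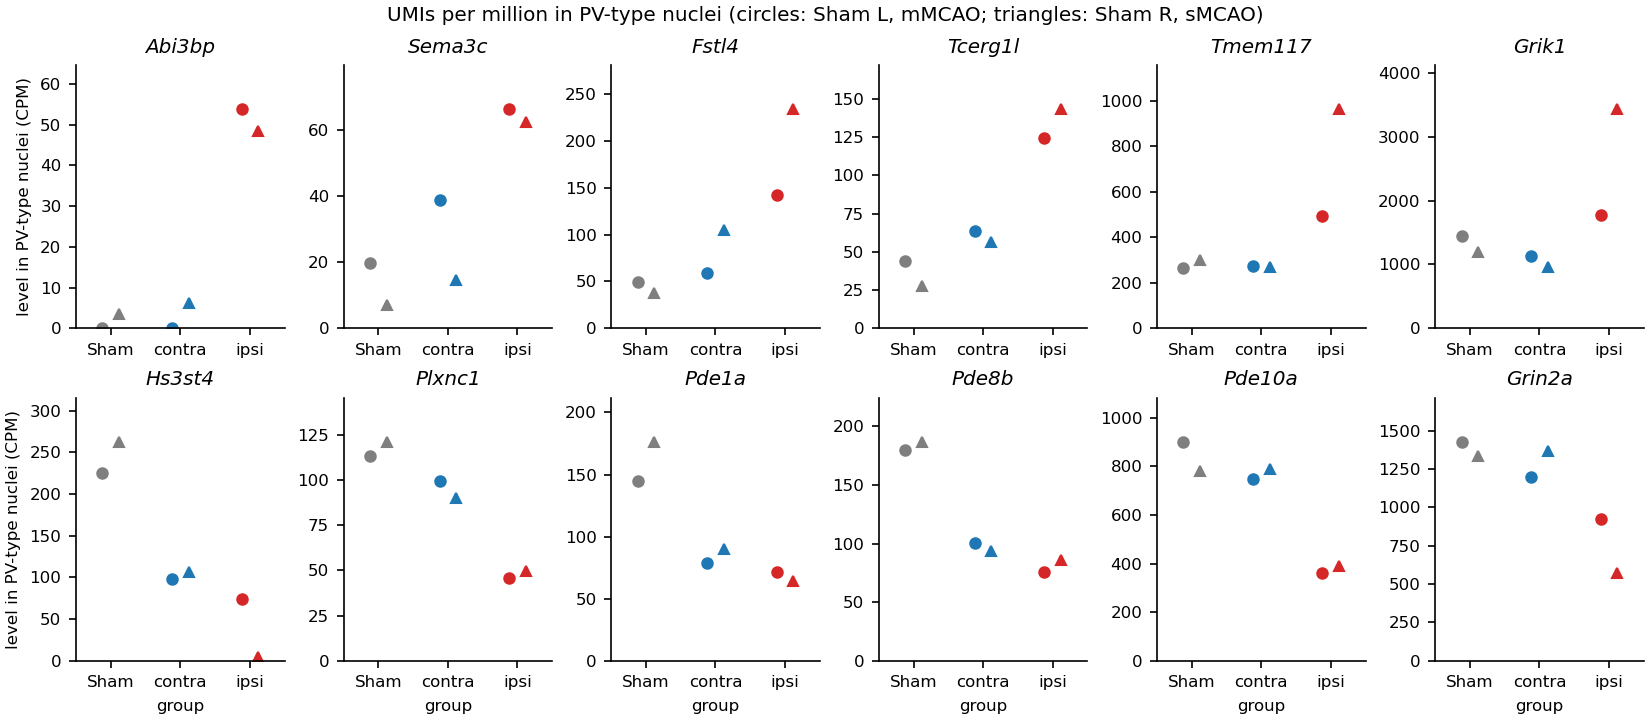
Level in PV-type nuclei (CPM, vertical axes starting at 0) of 12 genes in the Sham, MCAO contra and MCAO ipsi groups, 1 point per library, with Sham L and mMCAO as circles and Sham R and sMCAO as triangles. The upper 6 genes are highest in both MCAO ipsi libraries and the lower 6 lowest there, except that *Pde8b* and *Pde1a* are close to their MCAO contra values.

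The number of calls varied with the nuclei and libraries summed. With nuclei of at most 2 glial UMIs (514 nuclei and 2356745 UMIs in place of 777 and 3914222), 14 genes were called in place of 49, and with at least 6 marker UMIs and no *Sst* or *Vip* (430 nuclei and 2402083 UMIs), 10. Without Sham L the number was 4 and without Sham R 14, without mMCAO contra 20 and without sMCAO contra 21, while it was 307 without mMCAO ipsi and 77 without sMCAO ipsi. *Pde10a* and ENSRNOG00000068121 were called under all 18 alternative settings, *Tcerg1l* under 17 of 18 and *Fstl4* under 16 of 18. *Camk4* was called under only 3 of 18 and *Ptpro* under 5. Of the 12 settings that kept all libraries, *Grik1* was called under 7, *Maml2* and ENSRNOG00000068180 under 6 and *Cadps2* under 5. Over all 18 settings the log2 fold change ran from -1.27 to -1.0 for *Pde10a* and from 1.59 to 2.28 for *Tcerg1l*. It ran from -1.31 to -0.85 for *Camk4* and from 0.89 to 2.26 for *Ptpro*. For *Grik1* it ran from 0.42, below the limit of 0.6, to 1.36.

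Marker levels of other cell types moved with the groups. The summed level of 9 oligodendrocyte markers in PV-type nuclei was 83.0, 72.7, 136, 134, 150.1 and 203 CPM from Sham L to sMCAO ipsi, led by *Mbp*, and that of 12 myeloid markers was 9.05, 6.92, 18.3, 20.9, 40.4 and 59.2 CPM, led by *Gpnmb*, with 1 to 3 UMIs each of *C1qa*, *C1qb* and *C1qc*. Both sums were highest in the 2 ipsilateral libraries and lowest in Sham. The sum of 8 astrocyte markers, 289.6, 377, 344, 321, 448 and 279 CPM and led by *Slc4a4*, and that of 6 vascular markers, 10.6, 0, 3.43, 8.35, 6.21 and 10.9 CPM, overlapped between groups, while 4 markers of oligodendrocyte precursors summed to 0, 0, 5.71, 2.09, 8.28 and 4.68 CPM. The sums of 3 lists of other neurons were lowest in both ipsilateral libraries. Markers of medium spiny neurons (8 genes, led by *Pde10a*, itself among the called genes) summed to 973, 848, 823, 856, 445 and 466 CPM, those of *Adarb2*-lineage interneurons (8 genes, led by *Reln*) to 729, 986, 919, 695, 601 and 541 CPM and those of subcortical GABAergic neurons (13 genes, led by *Foxp2*) to 140.3, 187, 119, 157, 98.3 and 42.1 CPM. *Slc17a7*, *Slc17a6* and *Neurod6*, which define glutamatergic neurons, had no UMI, the first 2 by the rule. Against Sham, 49 genes were called with all PV-type nuclei, 14 with nuclei of at most 2 glial UMIs, 44 without predicted doublets and 51 without nuclei of 6 or more *Adarb2* UMIs. The part of the medium spiny and subcortical markers was not tested.

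*Pde10a* was also lower in lesioned hemispheres in 3 other types of nuclei, which was not tested in glutamatergic or oligodendrocyte nuclei. Medium spiny neuron nuclei held 3009.7, 2817, 3187, 3079, 1958 and 1859 CPM, glutamatergic nuclei (neurons with at least 2 UMIs of *Slc17a7* and none of *Gad1* and *Gad2*) 1406, 1404, 924, 1121, 478 and 447 CPM and oligodendrocyte nuclei 241, 187, 132, 179, 111 and 38.2 CPM from Sham L to sMCAO ipsi. In all 3 types both ipsilateral libraries were below the other 4. *Adarb2*-lineage nuclei held 782, 833, 614, 766, 459 and 628 CPM, and there sMCAO ipsi lay above mMCAO contra. For *Abi3bp*, glutamatergic nuclei held 36.1, 32.7, 26.4, 17.2, 70.3 and 124 CPM, *Adarb2*-lineage nuclei 4.1, 5.69, 6.34, 6.24, 9.68 and 13.7 CPM and oligodendrocyte nuclei 0, 0, 4.39, 4.48, 2.77 and 10.6 CPM. The ipsilateral libraries were again the highest in glutamatergic nuclei, and no *Adarb2*-lineage or oligodendrocyte value came near the PV-type values of MCAO ipsi.

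The second comparison set the lesioned hemispheres against the opposite hemispheres of the same rats, MCAO ipsi against MCAO contra, and shares both MCAO ipsi libraries with the first. Of 7675 genes tested, 62 were called (0.808%), 42 higher (0.547%) and 20 lower (0.261%) in MCAO ipsi. Of the 62, 1 belongs to the rule and is a description only, which leaves 61 outside it. *Nrg1*, the ligand of the ErbB4 receptor, was at 359 and 692 in Sham, 186 and 438 in MCAO contra and 743 and 1420.3 in MCAO ipsi. It rose against MCAO contra (log2 fold change 1.92 ± 0.32 (SE), adjusted p = 0.00445), but its Sham libraries differed from each other by as much as its ipsilateral ones, and the comparison with Sham did not pass (adjusted p = 0.119). *Erbb4* itself, the gene of that receptor, was at 10595 and 10964 in Sham, 11385 and 10718 in MCAO contra and 11267 and 10206 in MCAO ipsi, with overlapping groups. It was not restricted to PV-type nuclei, since *Adarb2*-lineage nuclei held 49063 UMIs of it. *Grik1* (1.39 ± 0.21), *Tmem117* (1.49 ± 0.22), the mitochondrial lyase gene *Clybl* (1.46 ± 0.27) and the syntrophin gene *Sntg2* (1.43 ± 0.33) rose as well, in log2 fold change ± SE. *Iqgap2* (-1.28 ± 0.21), *Pde10a* (-0.95 ± 0.14) and *Chrna7*, the nicotinic receptor subunit alpha7 (-1.12 ± 0.22), fell.

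Potassium channels of the fast-spiking phenotype stood among the decreases against MCAO contra. Of 24 tested genes in the list of sodium, potassium, HCN and calcium channels, 2 fell and none rose. *Kcnc1*, which encodes Kv3.1, was at 451 and 408 in Sham, 521 and 572 in MCAO contra and 336 and 249 in MCAO ipsi (log2 fold change -0.80 ± 0.15 (SE), adjusted p = 0.0108). *Kcna2*, the axonal channel Kv1.2, was at 57.3 and 65.7 in Sham, 105 and 139.9 in MCAO contra and 61.1 and 29.6 in MCAO ipsi (log2 fold change -1.24 ± 0.26 (SE), adjusted p = 0.0199). In both the contralateral libraries were the highest of the 6, so that MCAO ipsi lay nearer to Sham than to MCAO contra. Against Sham the log2 fold changes ± SE were -0.54 ± 0.16 and -0.33 ± 0.31, with adjusted p of 0.125 and 0.73, so neither was called.

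The other channel genes of the list counted here did not pass in either comparison. *Kcnc2*, at 3738 and 3764 in Sham, 3429 and 3004 in MCAO contra and 3627 and 4273 in MCAO ipsi, had MCAO ipsi values on both sides of Sham. The sodium channel gene *Scn1a* was at 765 and 754 in Sham, 809.8 and 854 in MCAO contra and 808 and 681 in MCAO ipsi. The median log2 fold change of the list was 0.01 against Sham and -0.10 against MCAO contra, beside -0.000592 and -0.00461 over all genes tested. Without mMCAO contra or sMCAO contra only 4 and 6 genes of all were called in this comparison, 326 without mMCAO ipsi and 110 without sMCAO ipsi. *Kcna2* was called under 11 of 17 alternative settings and *Kcnc1* under 13 of 18.

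**Figure D3:**
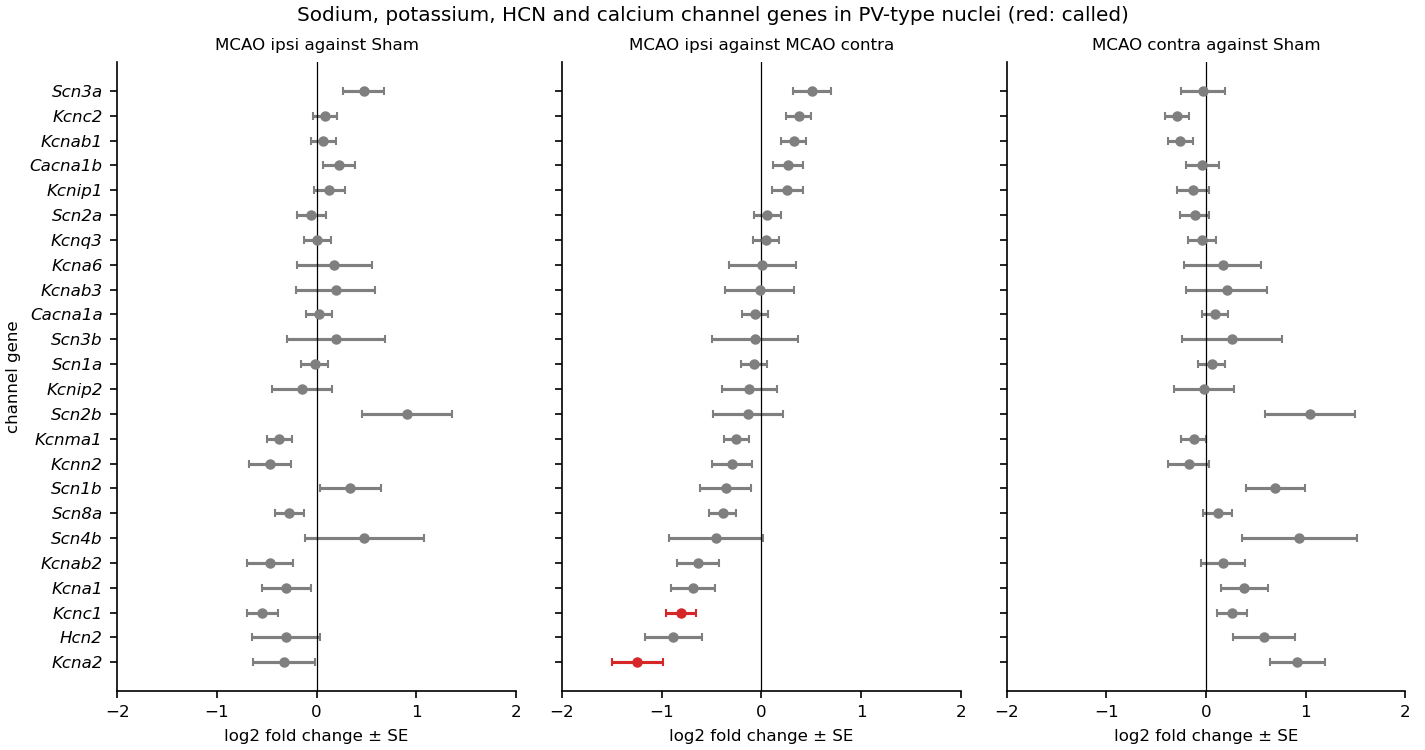
Log2 fold change ± SE (horizontal axis) of 24 channel genes (vertical axis) in PV-type nuclei for the 3 comparisons, called genes in red. *Kcnc1* and *Kcna2* are called in MCAO ipsi against MCAO contra, and the same genes lie above 0 in MCAO contra against Sham without being called.

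The promoters of *Kcnc1* and *Kcna2*, which fell together against MCAO contra, and of *Mybpc1*, described below, are shown to give the sequence context of their transcription starts. Each line holds the 250 bases before the start of the gene, 5′ to 3′ on the gene's strand, from RefSeq on build GRCr8, which is not the build of the count files. The windows are chr1:106038997-106039246 on the plus strand for *Kcnc1*, chr2:197393280-197393529 on the plus strand for *Kcna2* and chr7:24903374-24903623 on the minus strand for *Mybpc1*. Capitals mark matches on either strand to the GC box, spelled GGGCGG, in the windows of both channel genes, and to the TATA box, spelled TATAAA, in that of *Mybpc1*.
Kcnc1: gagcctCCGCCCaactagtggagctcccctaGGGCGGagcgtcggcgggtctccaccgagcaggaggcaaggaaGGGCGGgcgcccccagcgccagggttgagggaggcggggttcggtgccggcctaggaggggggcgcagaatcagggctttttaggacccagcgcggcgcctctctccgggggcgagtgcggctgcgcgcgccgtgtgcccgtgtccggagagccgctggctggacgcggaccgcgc
Kcna2: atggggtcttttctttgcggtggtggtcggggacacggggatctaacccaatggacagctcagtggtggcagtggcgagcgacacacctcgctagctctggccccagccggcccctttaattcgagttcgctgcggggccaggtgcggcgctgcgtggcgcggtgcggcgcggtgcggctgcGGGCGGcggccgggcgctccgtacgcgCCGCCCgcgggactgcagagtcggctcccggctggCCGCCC
Mybpc1: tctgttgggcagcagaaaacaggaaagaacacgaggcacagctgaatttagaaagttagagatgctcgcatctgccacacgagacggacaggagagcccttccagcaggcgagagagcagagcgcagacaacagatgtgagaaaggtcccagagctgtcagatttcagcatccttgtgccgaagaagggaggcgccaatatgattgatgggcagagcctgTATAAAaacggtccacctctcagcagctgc

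The GC box letters matched at 3 places in the *Kcnc1* window and at 3 in the *Kcna2* window, and 30.5% of 33365 promoter windows of the same length held at least 1 match. The TATA box letters matched once in the *Mybpc1* window and in 12.9% of all windows. Other motifs were searched on both strands and not found in these windows. The AP-1 motif, spelled TGANTCA, was held by 6.35% of all windows. The cAMP response element, spelled TGACGTCA, was held by 1.59% of them. The STAT motif, spelled TTCNNNGAA, was held by 7.68% of them. The core of the hypoxia response element, spelled ACGTG, was held by 16.6% and overlaps the cAMP response element in part of its letters. A match is a description of letters and no evidence of binding.

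The third comparison, MCAO contra against Sham, asked whether PV-type nuclei of the hemisphere opposite the lesion differed from those of Sham rats. No gene was called of 7675 tested (0.0%) by edgeR, with 262 higher and 252 lower at an unadjusted p below 0.05, and none by DESeq2. When the fit held only the 4 libraries compared, 23 genes were called, and 29 and 30 when mMCAO ipsi or sMCAO ipsi was left out. *Pde8b* and *Pde1a*, given above, did not pass, at adjusted p of 0.319 and 0.385. *Psap*, a lysosomal protein precursor, was at 42.2 and 48.4 in Sham and 102 and 102 in MCAO contra (log2 fold change 1.13 ± 0.25 (SE), adjusted p = 0.525). *Atp1b1*, a subunit of the sodium pump, was at 273 and 359.8 in Sham and 533 and 484 in MCAO contra, and *Atp2a2*, the calcium pump of the endoplasmic reticulum, at 172 and 135 and 243 and 286. Their groups did not overlap, as held for 24.8% of all genes tested in this direction. *Adgrb1* (0.75 ± 0.19), *Nipa1* (0.88 ± 0.24), *Kcnq5* (-0.56 ± 0.14), *Cadps2* (-0.93 ± 0.25) and the unnamed gene ENSRNOG00000065867 (-1.06 ± 0.28) were named by the same rule, in log2 fold change ± SE, and did not pass either.

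Of 197 tested genes from the gene lists, 4 were called against Sham, 4 against MCAO contra and 0 in MCAO contra against Sham by edgeR, beside 0.638, 0.808 and 0.0% of all genes tested. Among 21 tested glutamate receptor genes, *Grik1* rose and *Grin2a* fell against Sham. *Gria4*, the AMPA receptor subunit typical of these cells, was at 2534 and 2470.2 in Sham, 2353 and 2267 in MCAO contra and 2603 and 2091 in MCAO ipsi, so that MCAO ipsi overlapped both other groups while MCAO contra lay below Sham. Of 12 tested calcium handling genes only *Camk4* was called, against Sham. Among 2 tested medium spiny neuron markers, *Pde10a* was called in both comparisons.

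No gene was called in any comparison among 16 tested heat shock genes, 16 of hypoxia and glycolysis, 16 of mitochondrial energy metabolism, 13 GABA receptor genes, 20 of presynaptic release, 11 of neurofilaments and axons, 9 of the perineuronal net, 9 of stress, death and regrowth, 8 of the lineage from the medial ganglionic eminence and 7 of GABA synthesis and transport. With 0.638 and 0.808% of all genes called, the zeros in lists of this size set none of them apart. *Hspa4l*, the heat shock gene with most UMIs, was at 125 and 125 in Sham, 99.4 and 113 in MCAO contra and 119 and 106 in MCAO ipsi. *Ppargc1a*, the coactivator of mitochondrial biogenesis that is high in fast-spiking cells, was at 5148 and 4919.7 in Sham, 5103 and 4843 in MCAO contra and 4929 and 5154 in MCAO ipsi. *Hspa4l* in MCAO ipsi overlapped MCAO contra, and *Ppargc1a* overlapped in all 3 groups. *Gabbr2*, a GABA-B receptor subunit, was at 504 and 419 in Sham, 487 and 511 in MCAO contra and 353 and 313 in MCAO ipsi, and the phosphatase gene *Ptprs*, a receptor for perineuronal net proteoglycans, at 291 and 273, 272 and 334 and 189 and 203. Both were lowest in the ipsilateral libraries, with adjusted p of 0.154 and 0.139 against Sham. *Stat3*, a transcription factor of injury responses, was at 33.2 and 20.8 in Sham, 28.6 and 27.1 in MCAO contra and 47.6 and 81.1 in MCAO ipsi, with an adjusted p of 0.154 against Sham and 0.065 against MCAO contra. It was highest in the ipsilateral libraries without passing the test.

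Immediate early genes were too sparse to test, since 21 of 22 were found and 1 passed the filter on low counts. That gene, *Homer1*, was at 189 and 169.5 in Sham, 174 and 179.5 in MCAO contra and 179 and 189 in MCAO ipsi. *Egr2*, *Egr4* and *Npas4* had no UMI in any PV-type nucleus, and *Fosb*, *Egr3*, *Nr4a1*, *Nr4a3*, *Bdnf*, *Ier2* and *Atf3* had 1 to 3 UMIs in all. At this depth a change of these genes was not detectable. The list medians against Sham ran from -0.24 for presynaptic release to 0.12 for neurofilaments and axons among the lists of this and the preceding paragraph.

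*Mybpc1*, a gene of the rule, was at 84.5 and 118 in Sham, 95.9 and 66.8 in MCAO contra and 287 and 519 in MCAO ipsi, while *Eya4* was at 1232 and 1477, 1149 and 1279.7 and 1106 and 834 and *Kcns3* at 101 and 142, 105 and 85.6 and 112 and 126. Thus *Mybpc1* was higher and *Eya4* lower in both ipsilateral libraries, and *Kcns3* overlapped Sham, all without a test because these genes chose the nuclei. When nuclei were chosen by *Eya4* and *Kcns3* alone, which kept 686, *Mybpc1* no longer took part in the choice. It was then at 35.9, 37.3, 52.3, 27.3, 74.9 and 250.3 CPM from Sham L to sMCAO ipsi and passed in the comparison with Sham (log2 fold change 2.08 ± 0.44 (SE), adjusted p = 0.0264) and with MCAO contra (log2 fold change 1.92 ± 0.39 (SE), adjusted p = 0.0112). Of 7250 genes tested in these nuclei, 0.717% were called against Sham and 1.01% against MCAO contra. The step was uneven: mMCAO ipsi lay closer to the contralateral libraries than to sMCAO ipsi.

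In the same 686 nuclei, the share with at least 1 *Mybpc1* UMI was 11.7, 6.25, 13.5, 6.06, 16.1 and 26.2% from Sham L to sMCAO ipsi. The share in *Adarb2*-lineage nuclei was 0.394 to 1.58% at median depths of 2307.5 to 5969 UMIs, and no oligodendrocyte nucleus carried a UMI of it. The *Adarb2*-lineage nuclei were chosen with fewer than 4 UMIs of the PV markers, *Mybpc1* among them, so their low share follows in part from that limit. With each PV-type nucleus thinned to 2000 UMIs the shares became 7.03, 6.49, 9.2, 4.08, 7.14 and 16.4%. Then only sMCAO ipsi, at 16.4% (exact 95% interval 8.15 to 28.1%), exceeded the range of the other libraries, and its interval overlapped theirs.

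PV-type nuclei were split by *Mybpc1*, and many other genes differed in level between the sides. Nuclei with at least 2 UMIs of it numbered 12, 10, 20, 7, 43 and 26, and those with none 113, 75, 141, 93, 130 and 45, from Sham L to sMCAO ipsi. The sides were admitted by different markers: every nucleus without *Mybpc1* met the limit through *Eya4* and *Kcns3*, whereas 9, 7, 10, 5, 29 and 14 of those with it met the limit only through *Mybpc1*. Of 3379 genes at 100 CPM or more in the sum of both, 192 were higher and 201 lower in nuclei with *Mybpc1* in 6 of 6 libraries. Values over all libraries mix libraries with unequal numbers of *Mybpc1* nuclei, so the range of the ratio within libraries is given. Genes higher with *Mybpc1* were led by *Cdh6*, a cadherin, at 127 CPM against 5.81 over all libraries, with a ratio of at least 10.5 in each. *Tcerg1l* had ratios of 2.36 to 11.2, *Chrm2*, the muscarinic receptor M2, 2.35 to 6.14, *Zfpm2*, a transcriptional cofactor, 2.91 to 3.83 and the guidance cue *Slit2* 2.16 to 4.09. Genes lower with *Mybpc1* were led by *Unc13c*, a presynaptic priming factor, at 1.51 CPM against 131 over all libraries. The AMPA receptor auxiliary gene *Shisa6* had ratios of 0 to 0.0543, *Lingo2* 0 to 0.472, the calcium channel subunit *Cacna2d3* 0.0448 to 0.2 and the metabotropic glutamate receptor *Grm8* 0 to 0.206. *Erbb4*, at ratios of 1.35 to 1.53, was higher with *Mybpc1* in 6 of 6 libraries, and *Kcnc2*, at 0.932 to 1.44, in 4 of 6. When the split was made only among nuclei that met the limit through *Eya4* and *Kcns3*, which left 3, 3, 10, 2, 14 and 12 nuclei with *Mybpc1*, *Cdh6*, *Tcerg1l*, *Chrm2* and *Zfpm2* were higher with it in 5 of 6 libraries and *Slit2* in 6. *Unc13c*, *Shisa6*, *Lingo2*, *Cacna2d3* and *Grm8* were lower in 6 of 6. These values compare nuclei of the same libraries and carry no test.

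**Figure D4:**
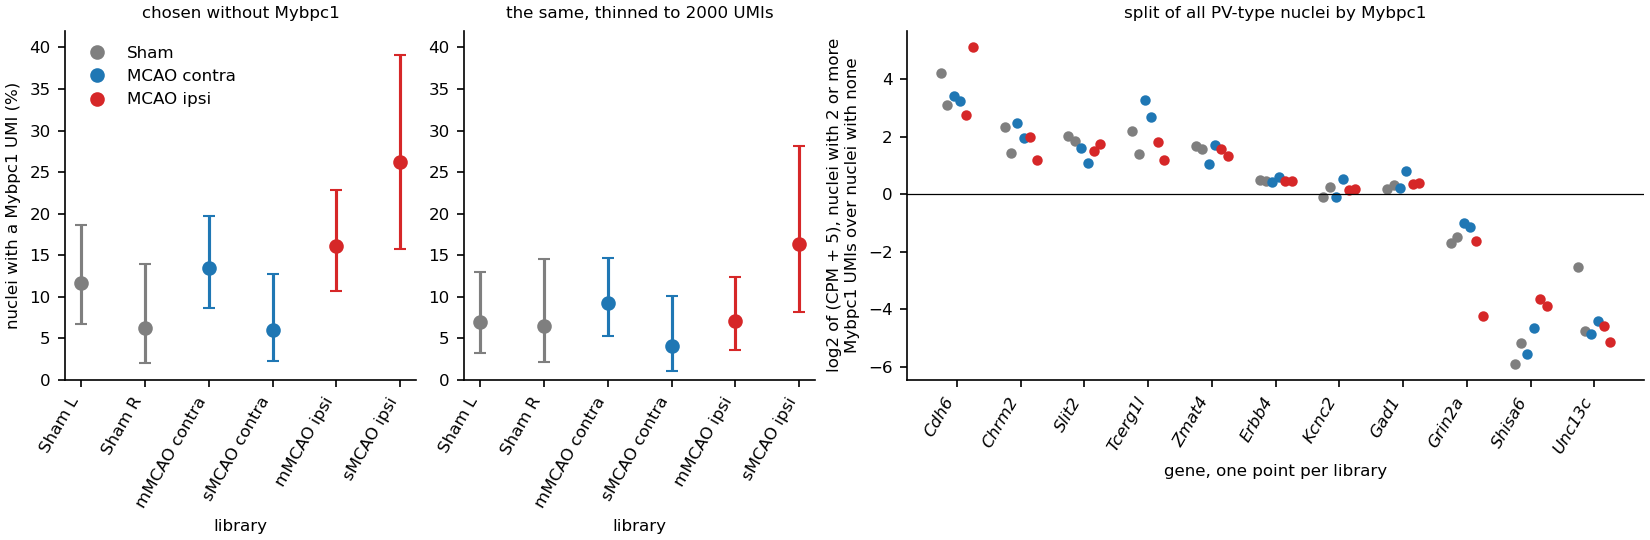
Left and centre, share of PV-type nuclei chosen without *Mybpc1* that carry a *Mybpc1* UMI (percent, exact 95% intervals) per library, with all UMIs and thinned to 2000 UMIs. Right, log2 ratio of (CPM + 5) between PV-type nuclei with 2 or more *Mybpc1* UMIs and nuclei with none for 11 genes, 1 point per library; *Cdh6* to *Zmat4* lie above 0 and *Grin2a* to *Unc13c* below 0 in all 6 libraries.

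Some of the genes called between the groups of rats also differed with *Mybpc1* within libraries. Of the 24 called genes outside the rule that were higher in MCAO ipsi than in Sham, 7 were higher with *Mybpc1* in 6 of 6 libraries, 0 were lower in 6 of 6 and 17 were neither. Of the 24 that were lower in MCAO ipsi, 3 were lower with *Mybpc1* in 6 of 6, 0 were higher and 21 were neither. The match was more mixed against MCAO contra. Of the 41 genes called higher there, 7 were higher with *Mybpc1* in 6 of 6, 2 were lower and 32 were neither. Of the 20 called lower, 2 were lower with it, 1 was higher and 17 were neither. Over all genes tested outside the rule, 3.3% were higher and 4.81% lower with *Mybpc1* in 6 of 6 libraries. *Grin2a*, at ratios of 0.0479 to 0.505, was lower with *Mybpc1*, while *Zmat4* at 2.08 to 3.34, *Edil3* at 1.49 to 2.41, *Klhl32* at 1.37 to 2.26 and *Tmem117* at 1.04 to 1.73 were higher. Other called genes did not follow it in every library: *Grik1* and *Fstl4* were higher with *Mybpc1* in 3 of 6. *Sema3c*, which rose in MCAO ipsi, was lower with it in 5 of 6 libraries, at ratios of 0 to 8.9. The nuclei with at least 2 *Mybpc1* UMIs held only 13 UMIs of *Sema3c* in all, too few to tell its direction in single libraries. When all nuclei with a *Mybpc1* UMI were left out, 5 of 6550 genes tested were called against Sham (0.0763%) and 25 against MCAO contra (0.382%). Of the 48 genes called against Sham outside the rule, 47 could be tested in these nuclei, 47 kept their direction, 40 kept a log2 fold change of at least 0.6 and 5 were also called. These 5 were *Hs3st4*, *Cemip*, *Pde10a*, ENSRNOG00000068121 and, as a description only, *Abi3bp*. *Pde10a* changed by -1.0 ± 0.16 and *Hs3st4* by -2.44 ± 0.39 in log2 fold change ± SE. *Grin2a* changed by -0.49 ± 0.15 and *Tcerg1l* by 1.63 ± 0.31, and neither passed, at adjusted p of 0.263 and 0.0671. Over all alternative settings the adjusted p of *Grin2a* ran from 3.46e-17 to 0.29 and that of *Tcerg1l* from 2.4e-08 to 0.0671.

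The last comparison asked whether PV-type nuclei changed differently from other neurons in MCAO ipsi against Sham, with the difference in log2 fold change tested in 1 fit per pair of types. Against *Adarb2*-lineage interneurons, 15 of 9562 genes differed (0.157%), 6 with a higher (0.0627%) and 9 with a lower change (0.0941%) in PV-type nuclei. *Fstl4* rose in PV-type nuclei and was at 197, 176, 176, 200.3, 171 and 169 CPM in *Adarb2*-lineage nuclei from Sham L to sMCAO ipsi, a difference of 2.23 ± 0.31 (SE, adjusted p = 0.00271). *Hs3st4* fell in PV-type nuclei and was at 335, 303, 308, 288, 301 and 273 CPM in *Adarb2*-lineage nuclei, a difference of -2.28 ± 0.39 (SE, adjusted p = 0.0148). In *Adarb2*-lineage nuclei both genes thus varied little across libraries. *Tcerg1l* differed by 1.73 ± 0.28 (SE, adjusted p = 0.00924), *Asic2*, an acid-sensing channel, by 1.04 ± 0.17 (SE, adjusted p = 0.00807), and *Cadps2* by -1.87 ± 0.28 (SE, adjusted p = 0.00417). In *Adarb2*-lineage nuclei on their own, 14 of 10082 genes were called against Sham (0.139%). The count of 15 was 0 without Sham R, 1 without Sham L, 6 without mMCAO contra, 8 without sMCAO contra, 33 without sMCAO ipsi and 158 without mMCAO ipsi.

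Against medium spiny neurons of the striatum, 91 of 9874 genes differed (0.922%), 74 with a higher (0.749%) and 17 with a lower change (0.172%) in PV-type nuclei. The higher ones included the oligodendrocyte markers *Mbp* (2.03 ± 0.36 (SE), adjusted p = 0.00223) and *Mog* (8.0 ± 1.7 (SE), adjusted p = 0.0154). For *Mbp* the log2 fold change was 1.28 in PV-type nuclei and -0.73 in medium spiny nuclei. *Zmat4* was at 300.2 and 301 in Sham and 458 and 650.1 in MCAO ipsi in PV-type nuclei, and at 157, 144, 106, 97.7, 81.8 and 98.6 CPM in medium spiny nuclei from Sham L to sMCAO ipsi. It rose in the first and fell in the second, a difference of 1.71 ± 0.18 (SE, adjusted p = 3.17e-06). *Tcerg1l* and *Cntnap5b*, a contactin-associated adhesion gene, also rose in PV-type nuclei and fell in medium spiny nuclei, with differences of 2.56 ± 0.31 (SE, adjusted p = 1.91e-05) and 1.54 ± 0.20 (SE, adjusted p = 4.01e-05). *Il1rapl2*, a synaptic adhesion gene, was at 297, 259.8, 181, 142, 87.4 and 23.6 CPM and the zinc finger gene *Zfp804b* at 199, 332, 131, 128, 68.3 and 40.5 CPM in medium spiny nuclei. Both fell there, whereas in PV-type nuclei their log2 fold changes were -0.05 and -0.42 and did not pass. The differences were 2.53 ± 0.27 (SE, adjusted p = 3.18e-06) and 1.91 ± 0.25 (SE, adjusted p = 4.2e-05). In medium spiny nuclei on their own, 417 of 10760 genes were called against Sham (3.88%). The count of 91 was 38 without Sham L, 26 without Sham R and 252 without mMCAO ipsi. The planned comparison with *Sst* interneurons, at 3 or more UMIs of *Sst*, could not be made, since 20 nuclei in all and none in Sham met its limits. With at least 1 UMI of *Sst* and at most 1 of *Adarb2*, 141 nuclei were found, 12 in Sham L and 9 in Sham R. No difference in response was tested with them.

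**Figure D5:**
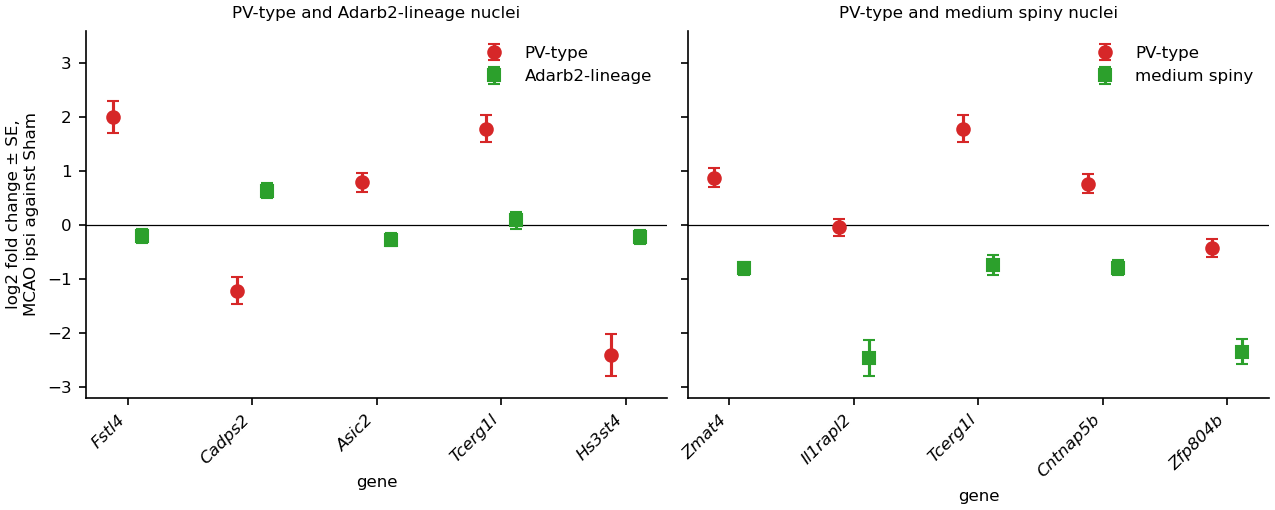
Log2 fold change ± SE of MCAO ipsi against Sham (vertical axis) for the 5 genes of smallest p in each test of a difference (horizontal axis), in PV-type nuclei (circles) and in *Adarb2*-lineage or medium spiny nuclei (squares). Against *Adarb2*-lineage nuclei, *Fstl4*, *Cadps2* and *Asic2* lie on opposite sides of 0 in the 2 types; against medium spiny nuclei, *Zmat4*, *Tcerg1l* and *Cntnap5b* do.

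Moderate and severe lesions were each seen in 1 ipsilateral library, so they were compared by counts alone, with exact intervals that hold counting error only. Of the 48 genes called against Sham outside the rule, 13 were higher and 6 lower in sMCAO ipsi than in mMCAO ipsi with an interval that excluded a ratio of 1, beside 6.44 and 5.96% of all genes tested outside the rule. Between Sham R and Sham L this held for 1 and 3 of the same genes (3.13 and 2.37% of all), and between sMCAO contra and mMCAO contra for 4 and 4 (3.51 and 2.95% of all). The intervals are narrower for genes with more UMIs, and the 48 genes were not matched to the others in level. *Grik1* was 1.93 (95% interval 1.81 to 2.06) times as high in sMCAO ipsi as in mMCAO ipsi, *Tmem117* 1.96 (95% interval 1.73 to 2.21) times, *Pcdh15* 2.27 (95% interval 1.97 to 2.62) times and *Fstl4* 1.65 (95% interval 1.3 to 2.09) times. *Hs3st4* was at a ratio of 0.0628 (95% interval 0.0126 to 0.191) and *Grin2a* at 0.622 (95% interval 0.55 to 0.703). By contrast *Pde10a*, at 1.08 (95% interval 0.912 to 1.27), and *Abi3bp*, at 0.898 (95% interval 0.556 to 1.43), had intervals that included 1. The depth of the nuclei and the share of *Mybpc1* nuclei differed between the same 2 libraries, and lesion size, depth and rats cannot be told apart here.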

How the data were processed

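Nuclei were profiled with a 5′ single-cell kit, and the authors deposited raw UMI counts per gene and nucleus from Cell Ranger 7.0.0 on mRatBN7.2 with intronic reads, before their own removal of ambient RNA and doublets, so both can contribute to the values. PV-type nuclei were taken by the rule in the report. The members, the gene lists and the tests were chosen with earlier results of these data known.

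UMIs were summed per library and tested with edgeR 4.0.16 (quasi-likelihood F test, TMM scaling, filterByExpr, all 6 libraries in 1 fit with 3 residual degrees of freedom) in R 4.3.3, with Benjamini-Hochberg adjustment over all genes tested. DESeq2 1.42.0 was an alternative. Named genes were the 10 called genes of largest rise and fall against Sham and the 5 in the other comparisons, at 50 CPM or more in the higher group and with every library in the same direction; where none were called, those of smallest p; called list members and up to 4 of highest level per list; the 15 genes of highest ratio to other GABAergic nuclei; and the 5 of smallest p in each difference in response. *Scn1a*, *Edil3*, *Klhl32*, *Slit2*, *Lhx6* and the genes named for the *Mybpc1* groups were chosen after their values were seen. A few members of the channel and glutamate receptor lists are not reported here and are left out of the list counts. On simulated counts for MCAO ipsi against Sham (7386 genes), 55.7% of genes with a log2 fold change of 1 and 91.8% with 2 were called. For the difference in response from medium spiny nuclei these rates were 25 and 88%. The changed genes were drawn only from those above a limit on summed UMIs, so the rates do not cover the sparsest genes tested. Doublets were scored against simulated ones with 30 neighbours, and the 5% with the highest scores were marked. Contralateral and ipsilateral libraries of a lesion group came from the same rats, yet their deviations from the group means correlated by only -0.0284; the rat pool was a block in an alternative. Of 30560 features, 7162 had no symbol. Intervals cover counting error only. CPM are the deposited counts scaled to 1000000 UMIs per library of summed nuclei.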

Additional observations from a re-analysis of the deposited data

Results flagged for a closer look

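The response to the lesion, MCAO ipsi against Sham, differed between PV-type nuclei and other neurons by the test of the difference itself in 15 genes against *Adarb2*-lineage nuclei and in 91 genes against medium spiny nuclei. The 91 included the oligodendrocyte markers *Mbp* and *Mog*. Against *Adarb2*-lineage nuclei, the differences in log2 fold change were 2.23 for *Fstl4*, 1.73 for *Tcerg1l* and 1.04 for *Asic2*, higher in PV-type nuclei, and -1.87 for *Cadps2* and -2.28 for *Hs3st4*, lower in PV-type nuclei. Against medium spiny nuclei they were 1.71 for *Zmat4*, 2.53 for *Il1rapl2*, 2.56 for *Tcerg1l*, 1.54 for *Cntnap5b* and 1.91 for *Zfp804b*, all higher in PV-type nuclei. The 5 differences from medium spiny nuclei were called under all 7 alternative settings run, and those from *Adarb2*-lineage nuclei under 4 to 6 of 7. The 7 settings were no filter on low counts and each of the 6 libraries left out in turn. The differences were not refitted without *Mybpc1* nuclei, without predicted doublets, with at most 2 glial UMIs or with at least 6 marker UMIs. The causes of the differences were not tested.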

How the results depend on the processing

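The number of genes called against Sham, 49, was 144 with no filter on low counts, 12 with only the 4 libraries compared in the fit, 10 with at least 6 marker UMIs and no *Sst* or *Vip*, 14 with at most 2 glial UMIs, 5 without *Mybpc1* nuclei, 29 with sums thinned to the smallest library and 21 with DESeq2. The number against MCAO contra, 62, was 143 with no filter, 12 with at most 2 glial UMIs, 25 without *Mybpc1* nuclei, 29 with thinned sums and 29 with DESeq2. In MCAO contra against Sham, where none was called, 11 were called with no filter and 23 with only the 4 libraries compared. With no filter the differences in response numbered 80 against *Adarb2*-lineage and 167 against medium spiny nuclei. With 1 library left out, the counts ran from 4 to 307, 4 to 326 and 0 to 30 for the 3 comparisons, and from 0 to 158 and 26 to 252 for the differences in response. Where that left an arm with 1 library, it was assumed to vary like the other groups.

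With the rat pool as a replicate block, 72 genes were called against MCAO contra, and with the replicate number as a block, 56 against Sham. Of the single results, only *Camk4* against Sham lost its call under a block, that of the replicate number. The share of PV-type nuclei among GABAergic nuclei, MCAO ipsi minus Sham, was 1.72 percentage points, 0.0639 with nuclei thinned to 2000 UMIs and 4.1 with 4000, and MCAO contra minus Sham was 0.644 percentage points, and -1.05 with nuclei thinned to 2000 UMIs. The share of all nuclei, MCAO ipsi minus Sham, was 0.303 points, and 0.945 thinned to 4000 UMIs. The causes were not tested. Among tests of single genes, 634 of 861 alternative values kept their direction and side of the threshold, 201 lost the call, 26 gained it and 0 reversed. Most of these genes were named because every library went in the same direction, which left little room for a reversal. The alternatives that left out *Mybpc1* or its nuclei, or nuclei with 6 or more *Adarb2* UMIs, and the split by *Mybpc1* among nuclei that met the limit without it, were chosen after seeing the data. The alternative that asked for a *Pvalb* UMI was not run, since *Pvalb* was not analysed here, nor was the comparison with *Sst* interneurons. Depth limited sparse genes, immediate early genes among them.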
